A study of Mus musculus with 2 samples.

Results

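The high-mitochondrial barcodes were 8171 of 27728 droplet barcodes in 2 single-cell RNA sequencing libraries of sorted splenic regulatory T cells (Tregs). A barcode entered the comparison if it held at least 300 genes and 1000 unique molecular identifiers (UMIs, each marking 1 captured transcript molecule), and it was a member if more than 5% of its UMIs came from the 13 genes of the mitochondrial chromosome. The 300-gene minimum and the 5% limit are those of the study's own quality filter, whereas the 1000-UMI minimum was added here to give each barcode enough molecules to describe. Members were thus chosen by their mitochondrial UMI share, and the levels of mt-Co1, mt-Nd1, mt-Cytb and the other mitochondrial genes are given as a description. All other genes were measured on a scale that leaves the mitochondrial UMIs out.

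Both libraries came from spleens of 7-day-old C57BL/6J mice, from which live CD4+ YFP+ cells that exclude the dye 7AAD were sorted after lysis of red blood cells. Mice of both groups carry Foxp3-Cre, in which a YFP-Cre fusion is expressed from the Foxp3 gene, so that Cre is active in Foxp3-expressing cells and the controls carry it as well. The WT group has intact Zfp335, which encodes a zinc finger transcription factor, and the KO group is Zfp335 fl/fl, so that its loss follows Foxp3 expression. There was 1 library for each genotype and the number of mice in each is not given in the sources used here, so genotype and library cannot be told apart, and no test between genotypes or between groups of barcodes was made.

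Mitochondrial transcripts encode subunits of the respiratory chain and stay inside the mitochondrion, whereas most other polyadenylated transcripts leave the nucleus for the cytosol. A droplet whose cell has a torn plasma membrane can lose cytosolic RNA and retain mitochondria and nuclei, which is the usual reason for a filter on the mitochondrial share. Cells rich in mitochondria also carry a high share, so the filter does not measure damage itself.

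In all, 64567991 UMIs were spread over 14524 barcodes in WT, and 65480052 over 18134 in KO. After the minimum on genes and UMIs, 11579 WT and 16149 KO barcodes remained. High-mitochondrial barcodes were 4662 of these in WT (40.3%, exact 95% interval 39.4 to 41.2) and 3509 in KO (21.7%, 21.1 to 22.4). A further 1809 WT and 855 KO barcodes were over 5% but under the minimum. Members carried 13.7% of all UMIs in WT and 10.8% in KO. All intervals given here cover counting error only. There were 70 barcode sequences listed in both libraries, of which 34 belonged to a member in at least 1 library and 5 to a member in both.

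The targeted gene Zfp335 matched the labels among members. T-lineage clusters here are those whose summed T cell marker level was at least 50% of the median over clusters. They include clusters 2 and 9, which are led by haemoglobin or neutrophil granule genes but hold T cell markers at 134% and 119% of the mean over clusters. In T-lineage clusters Zfp335 had 97 UMIs in WT members and 6 in KO members, a KO-to-WT ratio of 0.0764 (0.0274 to 0.172), and 389 and 41 UMIs at 5% or less, a ratio of 0.0989 (0.0699 to 0.137). Between members and depth-matched barcodes of the same library, described further on, it was at 48 and 43 UMIs in WT and 7 and 14 in KO (0.544, 0.186 to 1.44).

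High-mitochondrial barcodes were shallow. Their median was 1494 UMIs and 820 genes in WT, where barcodes at 5% or less had 5782 UMIs and 2002 genes. In KO the medians were 1548 UMIs and 836 genes in members against 2999 UMIs and 1255 genes at 5% or less. The mitochondrial share of members had a median of 10.6% in WT (quartiles 7.33 and 16.4%) and 9.51% in KO (6.78 and 13.7%), and reached 58.9% and 57.8%. The number of mitochondrial UMIs itself was closer between the groups in WT, with a median of 178 in members and 148 at 5% or less, whereas in KO it was 170 and 68. Shares between 5 and 7.5% were held by 26.4% of WT members and 32.6% of KO members, and shares over 50% by 7 and 5 barcodes.

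Nearly every shallow WT barcode passed the limit, and few deep ones did. Among WT barcodes of 1000 to 1500 UMIs, 2348 of 2671 were members (87.9%, 86.6 to 89.1). The share was 55.9% at 2000 to 3000 UMIs, 9.87% at 4000 to 6000 and 0.707% at 12000 UMIs or more, where 8 of 1131 barcodes were members. KO barcodes of 1000 to 1500 UMIs were members in 1659 of 4252 cases (39.0%, 37.6 to 40.5). At 2000 to 3000 UMIs the KO share was 22.6%, and at 12000 or more it was 0.669%. The libraries thus differed mainly among barcodes under 4000 UMIs, while from 4000 UMIs upwards the share lay within 3 percentage points between them.

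**Figure D1:**
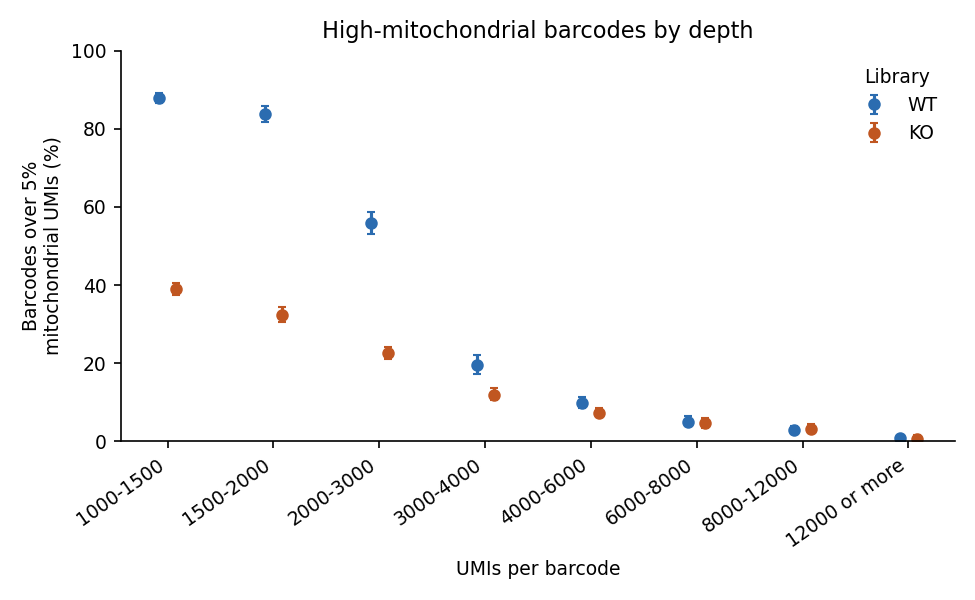
Percent of barcodes over 5% mitochondrial UMIs (y axis) in bins of total UMIs per barcode (x axis) for the WT and KO libraries, with exact 95% intervals for counting error. The WT share goes from 87.9% in the shallowest bin to 0.707% in the deepest, and the KO share from 39.0% to 0.669%.

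Barcodes just over and just under the 5% limit had similar levels of T cell receptor transcripts but not of haemoglobin. The 260 WT barcodes at 5 to 5.5% had a median of 2216 UMIs and the 295 at 4.5 to 5% had 2661. Summed T cell receptor transcripts were at 7599 counts per 1000000 non-mitochondrial UMIs (CPM) just over the limit and 7052 just under it in WT. In KO they were at 7614 and 7290, where these bands held 284 and 398 barcodes. Hbb-bs, a beta globin gene, was at 513 CPM just over the limit and 4646 just under it in WT, and the order was the opposite in KO, at 1667 and 928.

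All 13 mitochondrial genes were represented among the transcripts that chose the members. In WT, mt-Co1 (cytochrome c oxidase subunit, chromosome M 5328 to 6872, plus strand) stood at 18814 CPM of all UMIs in members and 4412 in barcodes at 5% or less, and in KO at 14248 and 3680. For mt-Nd1 (complex I subunit, chromosome M 2751 to 3707, plus strand) the values were 8733 and 1662 CPM in WT and 8807 and 1876 in KO. For mt-Cytb (complex III subunit, chromosome M 14145 to 15288, plus strand) they were 13409 and 2532 CPM in WT and 12469 and 2700 in KO.

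The mitochondrial genes did not differ in equal proportion. mt-Co1 made up 15.7% of mitochondrial UMIs in WT members and 17.9% at 5% or less, and 13.9% and 15.6% in KO. The share of mt-Nd1 was 7.30% against 6.73% in WT and 8.58% against 7.94% in KO. Against barcodes of equal depth, the part of mt-Co1 among the mitochondrial UMIs was 0.801 times as large in WT and 0.849 times in KO, and that of mt-Nd1 was 1.28 times and 1.18 times as large. mt-Nd6, the gene on the opposite strand (chromosome M 13552 to 14070, minus strand), was at 0.984 times in WT and 1.22 times in KO.

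To compare other transcripts at the same depth, each member was matched, within its library, to a barcode at 5% or less whose total UMIs differed by at most 5%. All 3509 KO members found a partner, but only 1480 of the WT members did (31.7%), as between 1000 and 2000 UMIs there were 3488 WT members and 543 WT barcodes at 5% or less. The other 3182 WT members stayed outside the pairs, so the paired WT members were deeper than WT members as a whole. The WT pairs had medians of 2460 and 2426 UMIs with 8.94% and 2.87% mitochondrial UMIs, and the KO pairs had medians of 1548 UMIs on either side with 9.51% and 2.30%. Nuclear gene levels were summed over the barcodes of each side and given as CPM of the non-mitochondrial UMIs. They are shares of what was captured, so more of a transcript and less of the others cannot be told apart.

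Members held slightly more kinds of genes at equal depth. When each paired barcode was thinned to 500 non-mitochondrial UMIs, the median number of genes was 373 in WT members and 349 in their partners, and 369 and 344 in KO. The unthinned medians were 1191 and 1128 genes in WT and 825 and 799 in KO. One KO member was too shallow to be thinned.

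High-mitochondrial barcodes carried T cell transcripts at a level close to that of their partners. The T cell receptor complex list sums 11 genes of the receptor chains, the CD3 chains and their partners. Its level was 6976 CPM in WT members and 7807 in their partners, a ratio of 0.894 (0.879 to 0.908), and in KO the ratio was 0.982 (0.970 to 0.995), while the median log2 ratio of its genes was -0.12 in WT and 0.10 in KO. None of the 11 genes passed 1.5-fold in WT and 1 did in KO, upwards, as did 18.8% and 31.7% of all genes with 50 UMIs. Cd3e, a signalling chain of the receptor, was at 0.918 (0.859 to 0.980) in WT and 1.07 (1.02 to 1.13) in KO. Trac, the constant region of the receptor alpha chain, was at 0.968 (0.906 to 1.03) and 1.10 (1.05 to 1.15). The KO ratio of the list passed to the upper side of 1 when all barcodes were compared without pairing, in members over 10% or 20%, and when single-barcode levels were averaged.

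Detection per barcode gave the same picture for T cell genes. At 500 UMIs, Cd3e was found in 18.2% of WT members and 20.5% of their partners, and in 18.7% and 18.3% in KO, against unthinned shares of 60.4% and 61.2% in WT and 47.9% and 48.4% in KO. In barcodes of clusters outside the T lineage the thinned Cd3e share was 4.24% in WT and 9.29% in KO, at median depths of 5764 and 2523 UMIs. Trac was found in 18.3% and 19.3% in WT and 22.2% and 20.9% in KO, with 3.05% and 11.9% outside the T lineage.

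Among Treg genes, Ikzf2 stood out. Ikzf2 encodes Helios, a transcription factor of thymus-derived Tregs, and lies on chromosome 1 at 69531214 to 69687245 on the minus strand (GRCm38, GENCODE annotation). It was at 1377 CPM in WT members against 688 in partners, a ratio of 2.00 (1.91 to 2.10), and at 1039 against 389 CPM in KO, a ratio of 2.67 (2.55 to 2.80). Foxp3, the transcription factor that defines Tregs, was at 63.4 and 63.9 CPM in WT (0.993, 0.832 to 1.19) and at 78.9 and 45.6 in KO (1.73, 1.497 to 2.00). With partners drawn only from outside clusters led by haemoglobin or granule genes, the KO ratio of Foxp3 was 1.35. Those clusters held more KO partners than KO members, their members stayed in, and 2297 KO pairs remained. Over the 10 genes of the Treg identity list, 1 passed 1.5-fold upwards in WT and 6 did in KO, a share above that of all genes only in KO. The median log2 ratio of the list was 0.14 in WT and 0.62 in KO, beside 0.23 and 0.33 over all genes.

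The remaining Treg genes were mostly somewhat higher in members. Il2ra, the interleukin-2 receptor alpha chain CD25, was at a ratio of 1.39 (1.26 to 1.55) in WT and 1.69 (1.58 to 1.81) in KO. Il2rb, the beta chain of that receptor, was at 1.45 (1.31 to 1.60) and 1.51 (1.41 to 1.61). Ctla4, an inhibitory receptor, was at 1.29 (1.12 to 1.49) and 1.57 (1.41 to 1.75). Il2rb and Ctla4 were picked after their values were seen. Tnfrsf4 (OX40) and Tnfrsf18 (GITR), costimulatory receptors of Tregs, were at 1.10 and 1.02 in WT and 1.21 and 1.22 in KO.

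Helios transcripts were also found in more barcodes. At 500 UMIs, Ikzf2 was detected in 47.6% of WT members and 25.1% of their partners, and in 37.3% and 17.4% in KO. Clusters outside the T lineage had 6.95% and 8.75%. The unthinned shares were 85.2% and 64.6% in WT and 66.9% and 47.0% in KO. Foxp3 was detected in 3.11% and 2.91% in WT and 3.91% and 2.02% in KO, with 1.02% and 1.17% outside the T lineage, so that its thinned share lay only a few percentage points above that background. The unthinned Foxp3 shares were 14.4% and 14.5% in WT and 12.3% and 7.78% in KO.

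At 1000 to 2000 UMIs, where most members lie, Ikzf2 was higher in bands of higher mitochondrial share. In WT it was at 492 CPM in the 182 barcodes at 0 to 2.5%, 843 at 2.5 to 5%, 1032 at 5 to 7.5%, 1395 at 7.5 to 10%, 2175 at 10 to 20% and 2416 in the 587 barcodes over 20%. In KO the same bands were at 361, 456, 697, 1142, 1490 and 1423 CPM. The order therefore held on both sides of the 5% limit in both libraries, except that the last KO band was below the one before it. The ratio of members to barcodes at 5% or less was above 1 at every depth, with 2.43, 2.72 and 1.55 in WT and 2.97, 2.68 and 1.91 in KO at 1000 to 2000, 2000 to 4000 and at least 4000 UMIs.

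**Figure D2:**
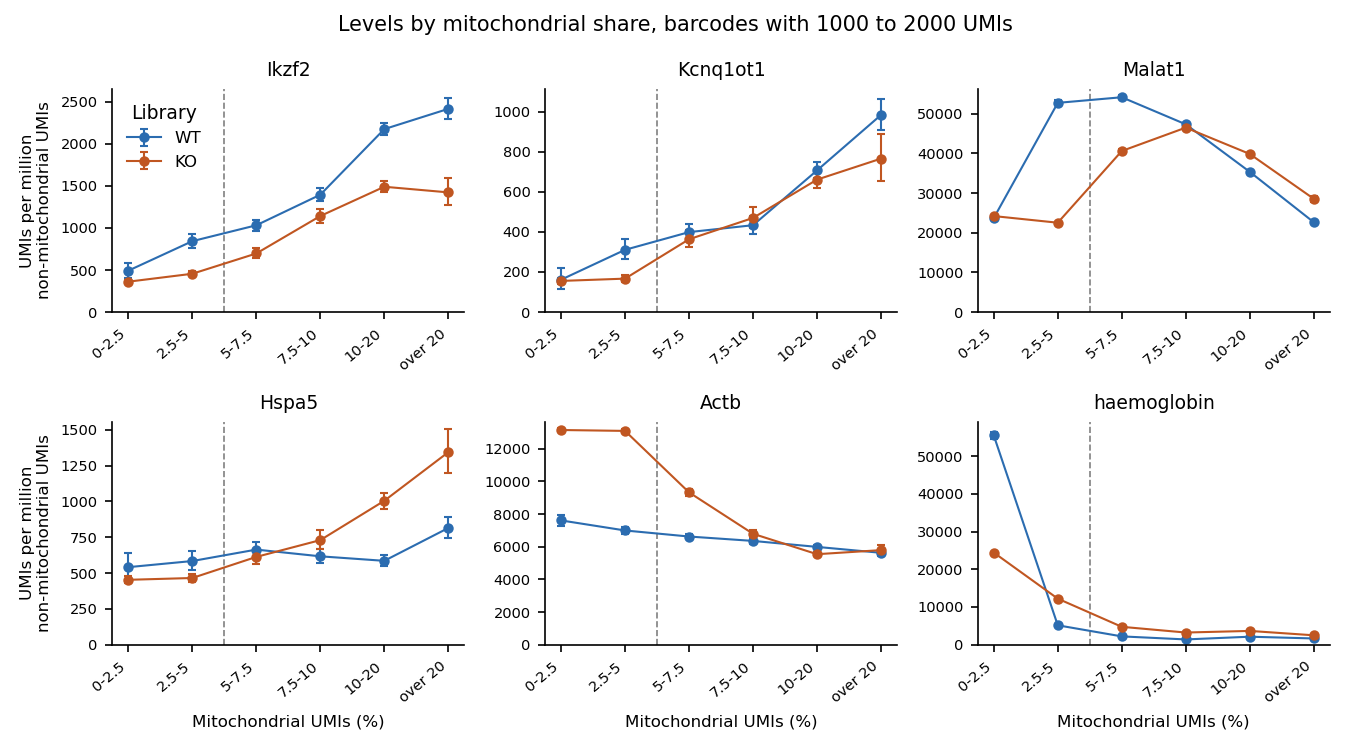
Levels as CPM of non-mitochondrial UMIs (y axes, from 0) by band of mitochondrial share (x axis) in WT and KO barcodes of 1000 to 2000 UMIs, summed over the barcodes of each band, with exact 95% Poisson intervals and a dashed line at the 5% limit. Ikzf2 goes from 492 to 2416 CPM in WT and from 361 to 1423 in KO, and Malat1 peaks at 54159 CPM at 5 to 7.5% in WT and at 46500 at 7.5 to 10% in KO.

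The resting T cell list lay below an even level in WT and above it in KO, a difference between libraries that was not tested, and the effector Treg list was near even in WT and lower in KO. The 12 genes of the resting list, such as Klf2 (a transcription factor of quiescent T cells), summed to a ratio of 0.872 (0.848 to 0.897) in WT and 1.22 (1.19 to 1.24) in KO. Foxp1, a further transcription factor of quiescence, was at 0.968 in WT and 1.56 in KO. The effector Treg list summed to 1.01 (0.978 to 1.03) in WT and 0.929 (0.8996 to 0.960) in KO, with 4 of 11 and 4 of 8 measured genes past 1.5-fold upwards, where 18.8% and 31.7% of all genes with 50 UMIs were. Lgals1, a galectin abundant in activated Tregs, was at 0.881 and 0.830. Itgb1, the integrin beta 1 chain, was at 1.60 and 2.05, and Nrp1, a semaphorin receptor of thymic Tregs, was at 2.05 (1.77 to 2.38) and 2.62 (2.08 to 3.32) and was picked after its values were seen. The median log2 ratio of the effector list was above 0 in both, at 0.36 in WT and 0.50 in KO, though its KO sum was below an even level.

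Within the list of nuclear-retained RNAs, the measured genes were higher in KO members, and in WT Kcnq1ot1 stood out. Tsix and Xist, which are not in this list, were higher in members of both libraries and are given further on. Kcnq1ot1 is a long non-coding RNA that acts in the nucleus on the imprinted Kcnq1 locus, and spans 143203458 to 143296549 of chromosome 7 on the minus strand. It was at 522 CPM in WT members and 236 in partners, a ratio of 2.21 (2.05 to 2.39), and at 476 and 159 in KO, a ratio of 2.99 (2.79 to 3.21). Neat1, the RNA scaffold of paraspeckles, was at 1.21 (1.10 to 1.33) in WT and 1.89 (1.75 to 2.05) in KO. Tug1, a further nuclear non-coding RNA picked after its values were seen, was at 1.17 (0.962 to 1.43) and 1.93 (1.59 to 2.34). Of the 4 genes of the list with 50 UMIs, 1 passed 1.5-fold upwards in WT and 4 did in KO, beside the same 18.8% and 31.7% of all genes, with medians of 0.25 and 0.93 on the log2 scale.

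Malat1, the abundant RNA of nuclear speckles, was at 34474 CPM in WT members and 34392 in partners (1.00, 0.995 to 1.01) and at 36598 and 24347 in KO (1.503, 1.49 to 1.51). Its level did not follow the mitochondrial share evenly. In WT barcodes of 1000 to 2000 UMIs it was at 23721 CPM at 0 to 2.5%, 52746 at 2.5 to 5%, 54159 at 5 to 7.5%, 47336 at 7.5 to 10%, 35355 at 10 to 20% and 22653 over 20%. In KO the bands were at 24203, 22529, 40607, 46500, 39861 and 28557. The highest levels thus lay near the limit, and the bands over 20% were within 5000 CPM of those at 0 to 2.5%. In KO the low side also differed in kind, as 56.9% of KO partners lay in clusters led by haemoglobin or neutrophil granule genes against 12.6% of members. With partners drawn only from other clusters and members of every cluster kept, which left 2297 KO pairs, the KO ratio of Malat1 was 1.23.

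Many long genes were among those with higher levels in members. Of 5216 nuclear genes with at least 200 UMIs over both sides in each library, 489 (9.38%) were at least 1.5-fold higher in both libraries and 16 (0.307%) at least 1.5-fold lower. In WT alone 12.7% were higher and 0.685% lower, and in KO 27.2% and 1.08%, with medians over all these genes of 0.18 and 0.27 on the log2 scale. The 489 genes had a median annotated length of 67447 bp (quartiles 36776 and 118434), all tested genes 23490 bp and the 16 lower genes 5388 bp. Non-coding genes were 18 of the 489 (3.68%) and 94 of all tested genes (1.80%).

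The ratio was higher with each step in gene length. Protein-coding genes under 5 kb (631 genes) had a median log2 ratio of -0.13 in WT and -0.18 in KO. The median was 0.06 and 0.03 from 5 to 20 kb, 0.24 and 0.34 from 20 to 50 kb, and 0.38 and 0.59 from 50 to 100 kb. In the 567 genes over 100 kb it was 0.44 in WT and 0.73 in KO. Whether reads in introns were counted is not given in the sources used here.

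The 12 genes with the highest ratio in both libraries had few UMIs each but wide differences. Tsix, the antisense partner of the X inactivation RNA (chromosome X, 103431517 to 103484957, plus strand), was at 118 against 33.9 CPM in WT, a ratio of 3.50 (2.89 to 4.25), and at 58.6 against 9.16 in KO, a ratio of 6.40 (4.89 to 8.50). It overlaps Xist on the opposite strand, and Xist, picked after its values were seen, was itself at 2.26 (2.11 to 2.42) in WT and 2.97 (2.86 to 3.08) in KO. Because the use of strand in counting is not given, reads of the pair cannot be told apart here. Gm28112 is annotated inside an intron of Ikzf2 on the same strand (chromosome 1, 69660187 to 69662061), and was at 2.85 (2.23 to 3.68) and 3.02 (2.34 to 3.92).

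The other genes of these 12 had varied functions. Cit, the citron kinase of cell division, was at 5.02 (3.77 to 6.78) in WT and 2.40 (2.05 to 2.81) in KO. Aspm, a spindle pole protein, was at 3.81 (2.88 to 5.11) and 2.39 (1.94 to 2.97). Bora, an activator of Aurora A, was at 2.61 and 2.58. Mcph1 (microcephalin, which guards entry into mitosis) was at 2.77 and 3.22, and E2f3 (a transcription factor of the cell cycle) was at 3.11 and 2.51. The rest were Nsd2, a histone methyltransferase, at 2.63 and 2.49, Phykpl, an enzyme of lysine breakdown, at 2.58 and 2.99, Ryr2, a calcium release channel, at 2.48 and 4.16, Mdfic at 3.01 and 2.44, and Slc7a1, a transporter of basic amino acids, at 2.58 and 2.40.

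**Figure D3:**
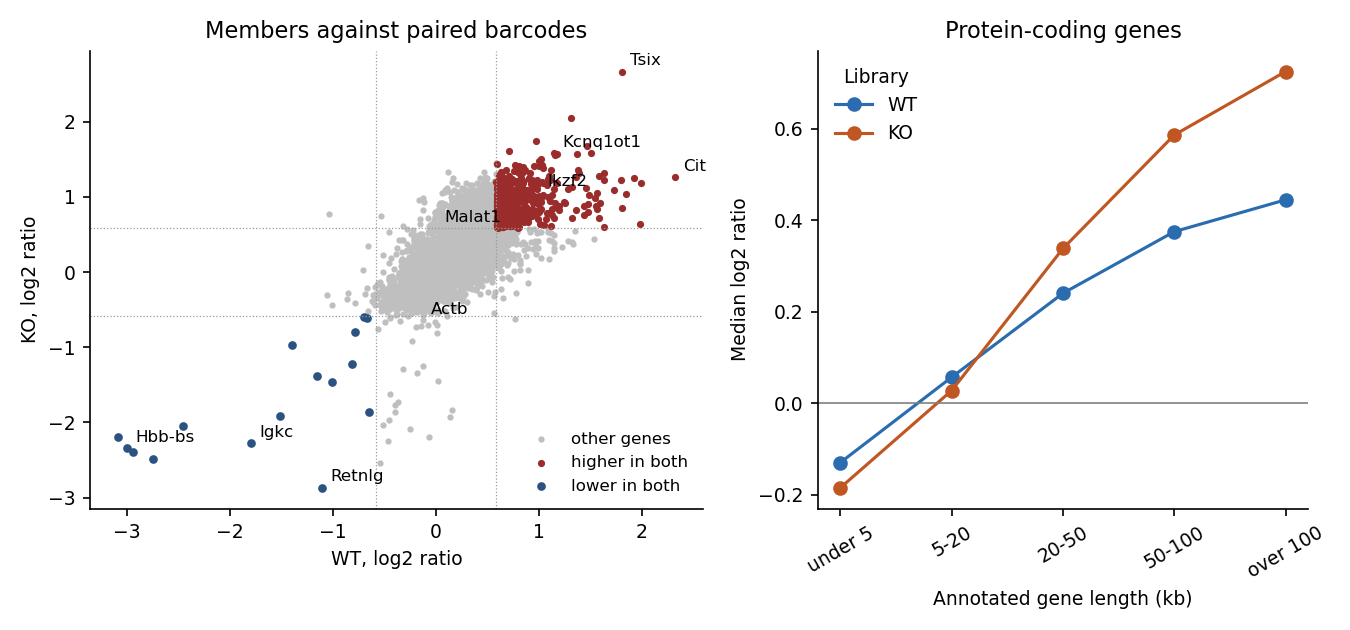
Log2 ratio of members to depth-matched barcodes at 5% or less in WT (x axis) and KO (y axis) for nuclear genes with at least 200 UMIs over both sides in each library, 1 point a gene, with dotted lines at 1.5-fold, and the median log2 ratio of protein-coding genes by annotated length (second panel). Of 5216 genes, 489 lie beyond the lines at the upper right and 16 at the lower left, where the haemoglobin genes stand apart, and the median by length goes from -0.13 to 0.44 in WT and from -0.18 to 0.73 in KO.

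As a sum, the proliferation list was higher in WT members and close to even in KO. Its 14 genes gave a summed ratio of 1.501 (1.46 to 1.54) in WT and 1.03 (1.02 to 1.05) in KO, with 6 and 2 genes past 1.5-fold upwards. Beside 18.8% and 31.7% of all genes with 50 UMIs, the KO count was below the background. With partners drawn only from outside clusters led by haemoglobin or granule genes the KO sum was at 1.28. Mki67, the marker of cycling cells Ki-67, was at 2.95 (2.72 to 3.20) in WT and 1.79 (1.67 to 1.91) in KO, and Top2a, the topoisomerase of replicating chromosomes, at 2.71 (2.48 to 2.96) and 1.84 (1.74 to 1.95). Both were picked after their values were seen. The most abundant genes of the list had smaller ratios, as Hmgb2, a chromatin protein, was at 1.32 in WT and 1.01 in KO, Stmn1, a tubulin-binding protein, at 1.02 and 0.802, and Tubb5, a tubulin chain, at 1.15 and 0.793. Without pairing by depth the summed ratio was below an even level, at 0.7504 in WT and 0.878 in KO, while Mki67 was at 1.40 and 1.51.

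The summed level of endoplasmic reticulum chaperones was higher in members of both libraries, though not at every depth. The list of endoplasmic reticulum stress genes summed to 1.36 (1.31 to 1.40) in WT and 1.45 (1.41 to 1.48) in KO, with 4 of 12 genes past 1.5-fold upwards in each, which in KO was close to the 31.7% of all genes with 50 UMIs and in WT above their 18.8%. At 4000 UMIs or more the list was at 0.976 (0.939 to 1.015) in WT and 1.10 (1.06 to 1.14) in KO. Hspa5, the chaperone BiP, was at 601 against 456 CPM in WT (1.32, 1.24 to 1.40) and 774 against 452 in KO (1.71, 1.64 to 1.79). Calr (calreticulin) was at 1.38 and 1.32, and Hsp90b1 (the chaperone GRP94) at 1.64 and 1.43. Pdia6, a disulfide isomerase, was at 1.68 and 1.67, and Hyou1, a large chaperone of the same compartment, at 2.05 (1.49 to 2.84) and 2.53 (1.90 to 3.40), and both were picked after their values were seen. The median log2 ratio of the list was 0.32 in WT and 0.44 in KO.

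Other stress lists differed little or in 1 library. The heat shock list summed to 1.15 (1.13 to 1.17) in WT and 1.02 (1.01 to 1.03) in KO. In each, 1 of 11 genes was past 1.5-fold upwards, below the 18.8% and 31.7% of all genes with 50 UMIs. Its most abundant gene Hsp90ab1, a cytosolic chaperone, was at 1.20 and 1.07. Hspa1a, an inducible HSP70, was at 1.27 (0.986 to 1.63) and 1.47 (1.23 to 1.76). The integrated stress response list summed to 1.18 (1.10 to 1.252) and 1.12 (1.08 to 1.17), with 0 of 9 and 2 of 12 genes past 1.5-fold upwards, below the 18.8% and 31.7% of all genes. The p53 target list summed to 1.04 (0.980 to 1.11) and 1.16 (1.11 to 1.21), with 1 of 10 and 4 of 12, of which neither stood clearly apart from those shares, and Bax, the pore-forming protein of apoptosis, was at 0.818 (0.733 to 0.912) and 0.943 (0.882 to 1.01).

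Immediate early genes, which respond to activation and to cell handling, gave a summed ratio of 1.01 (0.990 to 1.03) in WT members and of 1.30 (1.28 to 1.32) in those of KO, with 0 and 3 of 14 genes past 1.5-fold upwards. Both counts were below the 18.8% and 31.7% of all genes with 50 UMIs. Jun, a subunit of the transcription factor AP-1, was at 620 against 558 CPM in WT (1.11, 1.05 to 1.18) and 671 against 346 in KO (1.94, 1.84 to 2.04). Junb and Jund, further subunits, were at 0.987 and 0.944 in WT and 1.32 and 1.07 in KO. In members over 20% the list was at 0.498 in WT and 0.957 in KO, and Jun at 0.308 and 1.53. Interferon-stimulated genes were lower in both, at 0.836 (0.808 to 0.865) and 0.897 (0.877 to 0.918), with 5 of 12 and 1 of 14 past 1.5-fold downwards, where 1.58% and 2.06% of all genes with 50 UMIs were. Ifi27l2a, the most abundant of them, was at 0.835 and 0.809. Rsad2, the antiviral protein viperin, which also leads an erythroid-like cluster and was picked after its values were seen, was at 0.228 and 0.295.

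Abundant transcripts of ribosomal and cytoskeletal proteins were lower. The 76 cytosolic ribosomal protein genes made up 22.6% of the non-mitochondrial UMIs in WT members and 26.9% in their partners (0.841, 0.838 to 0.843), and 24.5% and 29.9% in KO (0.818, 0.817 to 0.820). None of the 76 passed 1.5-fold in either library, but their median log2 ratios were -0.26 in WT and -0.30 in KO. The cytoskeleton list summed to 0.833 (0.826 to 0.839) and 0.731 (0.727 to 0.736). Tmsb4x, the actin-binding thymosin beta 4, was at 10083 against 13745 CPM in WT (0.734) and 9346 against 12817 in KO (0.729). Actb, cytoplasmic actin, was at 0.914 (0.901 to 0.928) and 0.644 (0.637 to 0.651).

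The libraries differed in Actb among the barcodes with few mitochondrial UMIs. At 1000 to 2000 UMIs its level at 0 to 2.5% was 7611 CPM in WT and 13149 in KO, and over 20% it was 5626 and 5791. In between it was lower from band to band in both libraries, except that the last KO band lay slightly above the 5542 CPM at 10 to 20%.

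The summed levels of nuclear genes for the respiratory chain and for mitochondrial ribosomal proteins were lower in members. The 79 measured nuclear-encoded respiratory chain genes summed to 0.891 (0.883 to 0.8995) in WT and 0.815 (0.809 to 0.821) in KO, with none past 1.5-fold. Cox4i1, a nuclear-encoded subunit of the same complex as mt-Co1, was at 0.819 and 0.809. The 13 mitochondrial genes, whose share chose the members, summed on this scale to 3.99 and 4.62, given as a description only. The 78 mitochondrial ribosomal protein genes were at 0.903 (0.886 to 0.920) and 0.844 (0.833 to 0.856). The genes of the mitochondrial expression machinery, which copy and process the mitochondrial genome, were at 1.21 (1.11 to 1.32) and 1.13 (1.05 to 1.20), with 3 of 10 and 4 of 11 past 1.5-fold upwards, beside 18.8% and 31.7% of all genes with 50 UMIs, so that the KO count was near the background. Mitochondrial Slc25 carriers, a list added after the first results were seen, were at 0.992 (0.958 to 1.03) and 0.934 (0.910 to 0.959), although their median log2 ratio was 0.12 in KO. Glycolysis genes summed to 1.05 (1.03 to 1.08) in WT and 0.901 (0.886 to 0.917) in KO, and Gapdh, a glycolytic dehydrogenase, was at 1.03 and 0.797.

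Among membrane protein genes, solute carriers outside the Slc25 family and integrin chains were higher in members. The lists that follow were added after the first results were seen. Among solute carriers outside the Slc25 family, 38 of 81 measured genes in WT and 51 of 91 in KO were past 1.5-fold upwards, beside 18.8% and 31.7% of all genes with 50 UMIs, with median log2 ratios of 0.48 and 0.66. Slc38a2, a transporter of neutral amino acids, was at 1.29 (1.21 to 1.39) and 2.13 (2.02 to 2.25), and Slc38a1, of the same family, at 1.85 and 2.11. Slc3a2, the CD98 heavy chain, was at 1.51 and 1.81. Integrin chains summed to 1.47 (1.42 to 1.52) and 1.72 (1.66 to 1.78), with 4 of 10 and 7 of 9 measured genes past 1.5-fold upwards. Itgal, the alpha chain of the adhesion receptor LFA-1, was at 257 against 135 CPM in WT (1.90) and 204 against 94.3 in KO (2.17).

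Not all membrane protein genes were higher. The translocon and signal peptide processing list was even, at 1.01 (0.979 to 1.04) in WT and 1.02 (0.998 to 1.04) in KO. Genes of the Tmem series were at 1.04 (1.02 to 1.06) and 1.12 (1.10 to 1.14), with medians of 0.18 and 0.30 that were close to those of all genes. Surface antigens of the CD series were at 0.927 (0.914 to 0.939) in WT, with 3 of 43 genes past 1.5-fold upwards and 4 downwards, and at 1.12 (1.10 to 1.13) in KO, with 14 and 3 of 46. Of all genes with 50 UMIs, 18.8% in WT and 31.7% in KO were past 1.5-fold upwards, and 1.58% and 2.06% downwards. The upward count of the CD series was thus below that share in WT and near it in KO. Cytosolic complexes served for comparison, with proteasome subunits at 0.947 and 0.870 and the CCT chaperonin at 0.995 and 0.907.

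**Figure D4:**
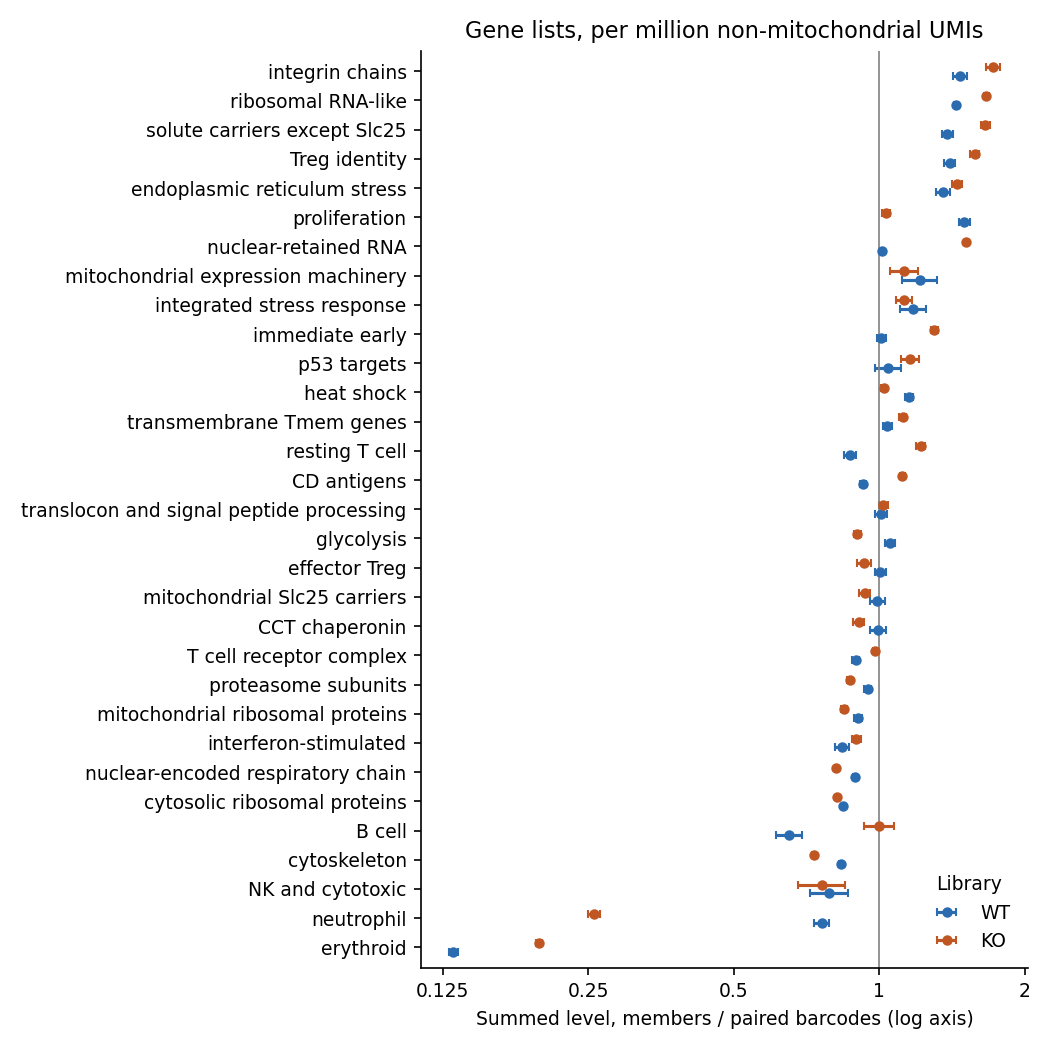
Summed level of each gene list in members relative to depth-matched barcodes at 5% or less (x axis, ratio on a log axis) for WT and KO, with exact 95% intervals for counting error. Solute carriers, integrins, endoplasmic reticulum stress and Treg identity genes lie to the right of 1 in both libraries, and ribosomal protein, cytoskeleton and erythroid genes to the left. Ikzf2 alone held 5363 of the 12376 Treg identity UMIs of WT members, and the median log2 ratio of that list in WT, 0.14, was below the 0.23 of all genes.

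Transcripts of red blood cells were far lower in members. The erythroid list made up 0.246% of non-mitochondrial UMIs in WT members against 1.87% in their partners, a ratio of 0.132 (0.129 to 0.134), and 0.359% against 1.81% in KO, a ratio of 0.198 (0.195 to 0.201). Of its measured genes, 8 of 10 in WT and 11 of 11 in KO were past 1.5-fold downwards, beside 1.58% and 2.06% of all genes with 50 UMIs. Hbb-bs was at 1080 against 8652 CPM in WT (0.1248, 0.121 to 0.129) and 1658 against 8379 in KO (0.198, 0.194 to 0.202). Hba-a1 was at 0.130 and 0.191, Hba-a2 at 0.118 and 0.218, and Hbb-bt at 0.148 and 0.178. The alpha globin genes, like the beta globin genes, are near-identical copies, so that the division of reads within each pair is uncertain. Alas2, the first enzyme of haem synthesis in red cells, was at 0.180 and 0.241, and Slc4a1, the anion exchanger of the red cell membrane, at 0.347 and 0.264.

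In WT, the erythroid difference was seen only with barcodes outside the T-lineage clusters included. Among paired barcodes of T-lineage clusters alone, the erythroid ratio was 1.16 in WT and 0.317 in KO. The KO value includes clusters 2 and 9, which are led by haemoglobin or granule genes and held 12.6% of paired KO members and 56.9% of their partners, so that it does not describe the other T-lineage clusters. Haemoglobin was present in most barcodes of both sides, as a UMI of Hbb-bs was found in 62.8% of WT members and 60.3% of partners, and in 75.3% and 82.6% in KO without thinning. At 500 UMIs the shares were 23.1% and 24.0% in WT and 41.0% and 55.1% in KO. In barcodes of 1000 to 2000 UMIs the summed haemoglobin level was 55469 CPM at 0 to 2.5% and between 1388 and 2194 from 5% upwards in WT, and 24418 at 0 to 2.5% and between 2484 and 4735 in KO.

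Neutrophil genes were lower in KO members, while in WT only their sum was, and B cell genes were mostly lower in WT members and mixed in KO. Of all genes with 50 UMIs, 18.8% in WT and 31.7% in KO were past 1.5-fold upwards, and 1.58% and 2.06% downwards. Neutrophil granule genes summed to 0.760 (0.734 to 0.787) in WT, where 1 of 10 measured genes was past 1.5-fold upwards and 1 downwards, and to 0.257 (0.2499 to 0.264) in KO, where 11 of 11 were past 1.5-fold downwards. S100a8, a calcium-binding protein of neutrophils, was at 454 against 600 CPM in WT and 297 against 1015 in KO. At 500 UMIs it was nevertheless found in 13.5% of WT members and 11.9% of partners (45.5% and 38.2% unthinned), and in 10.5% and 19.4% in KO (27.0% and 36.8%), with 26.1% and 18.8% outside the T lineage. The B cell list was at 0.652 (0.613 to 0.694) and 0.997 (0.929 to 1.07), with 6 of 7 measured genes past 1.5-fold downwards in WT, and 2 downwards and 1 upwards in KO. The gene above was Cd74, the invariant chain of antigen presentation, at 1.71 (1.488 to 1.97) in KO and 0.484 (0.422 to 0.554) in WT. Igkc, the immunoglobulin kappa constant region, was at 0.286 and 0.205. Cd79a, a chain of the B cell receptor, was found at 500 UMIs in 0.338% of WT members and 1.49% of partners and in 0.342% and 0.428% in KO. With T-lineage clusters alone, the neutrophil list was at 1.18 in WT and 0.317 in KO, the B cell list at 1.05 and 1.07, and Igkc at 0.922 and 1.06. The NK and cytotoxic list was at 0.787 and 0.760. The CD8 T cell list had 21 UMIs in WT members and 31 in partners and 72 and 66 in KO, the mast cell list 51 and 36 and 65 and 94, and the platelet list 12 and 12 and 12 and 15. Fcer1g, Retnlg and Cd24a, genes of myeloid or immature blood cells, and Bpgm and Blvrb, enzymes of red cells, completed the 12 lowest genes, at 0.447, 0.464, 0.493, 0.378 and 0.567 in WT and 0.384, 0.136, 0.361, 0.507 and 0.429 in KO.

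The macrophage list rested on few UMIs, at 122 against 379 in WT (0.344, 0.279 to 0.423) and 128 against 119 in KO (1.17, 0.904 to 1.51). The ribosomal RNA-like genes of chromosome 17 were higher among the pairs of both libraries, at 1.44 (1.43 to 1.45) and 1.67 (1.65 to 1.68). Among all barcodes of 1000 to 2000 UMIs, which hold most members, their ratio was 0.989 (0.977 to 1) in WT and 1.53 in KO. In WT members over 20% it was 0.927. Gm26917 was at 1.96 and 3.35, Gm42418 at 1.42 and 1.58, and AY036118 at 1.54 and 1.69. Gm42418 and AY036118 overlap on opposite strands and cannot be told apart here.

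The position of members in a clustering made without mitochondrial or listed genes was uneven. Cluster 5, led by Insyn2b, Tsix, Map3k12 and Phykpl, which stays without a cell type name, consisted almost wholly of members, with 1855 of 1911 barcodes in WT (97.1%, 96.2 to 97.8) and 694 of 724 in KO (95.9%, 94.1 to 97.2). It held 39.8% of WT members and 19.8% of KO members, at a median of 1326 and 1474 UMIs and 14.7% and 13.0% mitochondrial UMIs. Cluster 3, unnamed as well and led by 4933433G15Rik and Lncpint, was 65.3% (63.3 to 67.2) members in WT and 73.1% (70.0 to 76.0) in KO, and held 32.6% and 18.2% of them. Although mitochondrial genes were left out of the clustering, these clusters were thus made up mainly of members.

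Clusters of recognizable cells held smaller shares of members than clusters 3 and 5, but they were also deeper. Median depths in WT were 3821 UMIs in cluster 1, 6741 in cluster 4, 13450 in the histone-led cluster and 9148 in the neutrophil-like one. Of all WT barcodes at 6000 to 8000 UMIs 4.99% were members, with 2.79% at 8000 to 12000 and 0.707% at 12000 or more. Shares of clusters at equal depth were not compared. The resting-like cluster 1, in which all 6 resting markers stood above other clusters, held 17.6% members in WT (16.1 to 19.2) and 18.1% in KO (17.1 to 19.0). The effector-like cluster 4, led by Klrg1, Gzmb and Cxcr3, held 14.2% members in WT (12.8 to 15.6) and 22.0% among the 141 barcodes of KO (15.5 to 29.7). The cluster led by the mitotic genes Aspm and Cenpf was 38.7% members in WT and 21.3% in KO, and the histone-led proliferating cluster 11.4% and 16.3%. In KO the effector-like and mitotic clusters were close to the 21.7% of all KO barcodes that entered the comparison, which are of every depth. Their median depths were 5052 and 5706 UMIs, and of all KO barcodes at 4000 to 6000 UMIs 7.34% were members. The WT mitotic cluster had a median of 6126 UMIs, in the bin where 4.99% of all WT barcodes were members. The haemoglobin-rich erythroid-like cluster was 2.33% and 2.30%, with a median mitochondrial share of 0.546% and 0.640%, and the neutrophil-like cluster 2.13% and 2.33%. The cluster led by haemoglobin and granule genes, unnamed since it also had T cell markers, was 57.2% members in WT (271 barcodes) and 11.2% in KO (3793 barcodes).

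**Figure D5:**
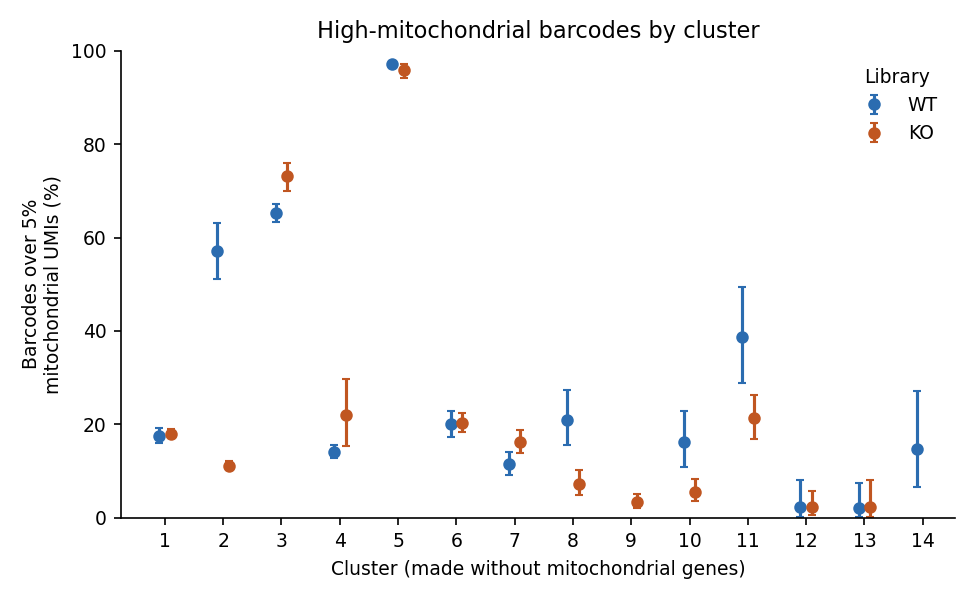
Percent of barcodes over 5% mitochondrial UMIs (y axis) in each numbered expression cluster with at least 50 barcodes of a library (x axis), for WT and KO, with exact 95% intervals for counting error. Cluster 5, led by Insyn2b and Tsix, is at 97.1% and 95.9%, and cluster 12, the haemoglobin-rich erythroid-like one, at 2.33% and 2.30%.

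Over all clusters, 98.3% (97.9 to 98.6) of WT members and 98.1% (97.7 to 98.6) of KO members lay in T-lineage clusters, clusters 2 and 9 included, against 92.6% and 91.7% of barcodes at 5% or less. Doublet scores in the range that the study's doublet removal would take were held by 9.39% of WT members and 2.79% of other WT barcodes, and by 12.1% and 7.48% in KO. No doublets were removed here, and their part in the results was not tested beyond the comparison without those barcodes.

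Like Zfp335, the genes Hadha, Cdkn1a and Phlda3, picked with earlier results of these data known, had KO-to-WT ratios of similar size in T-lineage clusters on both sides of the filter. Hadha, an enzyme of fatty acid oxidation, was at 0.457 (0.406 to 0.514) in members and 0.479 (0.459 to 0.501) at 5% or less. Cdkn1a, the cell cycle inhibitor p21, was at 5.28 (3.95 to 7.16) and 5.34 (4.75 to 6.01), and the p53 target Phlda3 at 6.77 (4.47 to 10.6) and 8.21 (7.03 to 9.63).

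Several KO-to-WT ratios differed by the side of the filter. Haemoglobin was at 1.98 in members and 6.21 at 5% or less, and neutrophil genes at 0.756 and 2.30. The T-lineage clusters used include cluster 2, led by haemoglobin and granule genes. It held 26.7% of KO and 1.68% of WT barcodes at 5% or less, and 12.05% and 3.325% of members. The part of this cluster in the ratios was not tested. The effector Treg list was at 0.433 (0.421 to 0.446) in members and 0.296 at 5% or less. Malat1 was at 0.985 and 1.18, and the T cell receptor list at 1.11 and 0.955. Foxp3 and Ikzf2 lay close on either side, at 1.11 (0.983 to 1.26) and 1.10 and at 0.656 and 0.616.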

How the data were processed

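The authors made the deposited matrices of raw UMI counts with Cell Ranger 5.0.1 on mm10. The deposited counts held 32285 features, whose shared symbols were summed to 32245. Intron and strand counting are not given in the sources used here. Gene positions and lengths came from a GENCODE annotation of GRCm38. Each member was paired, from the deepest down and without reuse, with the barcode at 5% or less nearest in total UMIs. Ratios carry exact conditional binomial 95% intervals and shares Clopper-Pearson intervals. With 1 library a genotype, no p-value was computed. Log2 ratios had 0.5 added to each UMI sum, and single genes in lists needed 50 UMIs. Clusters came from 2000 variable genes, 30 components, 20 neighbours and Leiden clustering at resolution 0.5 (scanpy 1.11.5, igraph 0.11.9). Doublet scores were computed with Scrublet, and no doublets were removed except as an alternative (top 5% in WT, 8% in KO, as in the study's doublet counts). Ratio code was tested on simulated data. Named genes were the 12 highest and 12 lowest by the library nearer to 1, the mitochondrial genes, and the 3 most abundant of each list, and other genes were picked after their values were seen. Members and lists were chosen with earlier results of these data known.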

Additional observations from a re-analysis of the deposited data

Results flagged for a closer look

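In 3 gene lists the WT and KO libraries lay on opposite sides of an even level, with 1 library each and no test of the difference. The resting T cell list was at a member-to-partner ratio of 0.872 in WT and 1.22 in KO. The glycolysis list was at 1.05 in WT and 0.901 in KO. Genes of the CD antigen series, a list added after the first results were seen, were at 0.927 in WT and 1.12 in KO. The KO partners differed from the WT partners in kind, since 56.9% of them lay in clusters led by haemoglobin or granule genes against 6.01% in WT. With partners from those clusters left out, but not members, the KO ratios were 1.06, 1.01 and 1.06.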

How the results depend on the processing

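Samples could not be paired because each genotype has 1 library, and no result comes from a test between samples. The share of members was 21.7% in WT and 10.0% in KO with a limit of 10%, 44.54% and 24.1% with a 500-UMI minimum, 15.6% and 11.4% with a 2000-UMI minimum, and 38.6% and 20.9% without the highest doublet scores. Genes higher and lower in both libraries numbered 241 and 28 on the scale of all UMIs, 2831 and 184 without pairing, 29 in members over 20% (higher), 123 and 5 at 3000 UMIs or more, 1120 and 45 with a 50-UMI gene minimum and 58 and 5 with 1000. Lower genes numbered 30 when pairing on non-mitochondrial UMIs, 0 in T-lineage clusters, 39 in members over 10% and 26 for means of single barcodes. In T-lineage clusters 339 of the 489 higher genes were still higher. With no partners from clusters led by haemoglobin or granule genes 364 were.

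The T cell receptor ratio was, in the order all-UMI scale, pairing on non-mitochondrial UMIs, no pairing, T-lineage clusters, members over 20%, single-barcode means, no doublets and 3000 UMIs, 0.825, 0.922, 0.915, 0.862, 1.06, 0.912, 0.870 and 0.877 in WT. In KO it was 0.903 (all-UMI scale), 1.04 (no pairing), 0.957 (T-lineage), and 1.03 and 1.16 (over 10% and 20%). It was 1.01 (means), 0.964 (no doublets) and 0.9499 (3000 UMIs), and 0.944 with no partners from clusters led by haemoglobin or granule genes. Malat1 in WT was at 0.925, 2.17 (no pairing), 0.967 (T-lineage), 0.801 and 0.544 (over 10% and 20%), 0.959, 0.986, 1.09 and 0.979, and in KO at 1.38, 1.79, 1.48, 1.60, 1.251, 1.62, 1.55, 1.22 and 1.23 in the same order. The causes were not tested.

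Of list medians past 1.5-fold, those that changed sign on the log2 scale were erythroid in WT T-lineage clusters (0.18), B cell in WT (0.24 without pairing, 0.023 in T-lineage clusters) and macrophage (0.58 in WT and -0.68 in KO without pairing, -0.43 in KO without a gene minimum). Medians nearer to 0 changed sign more often. Without pairing, that of proliferation in WT went from 0.54 to -0.45 and that of resting T cell genes in WT from -0.29 to 0.63, and in members over 20% those of nuclear-retained RNA and immediate early genes in WT went to -0.59 and -0.99 and that of effector Treg genes in KO to -0.73. Medians of the T cell receptor, heat shock, p53, glycolysis, neutrophil (WT) and several other lists also changed sign in at least 1 alternative. The Treg identity, endoplasmic reticulum stress, interferon, cytoskeleton, ribosomal protein, integrin and solute carrier medians kept their sign in every alternative run. A median above 0 is not in itself above that of all genes with 50 UMIs, which was 0.23 in WT and 0.33 in KO. That of Treg identity in WT, 0.14, was below it and went down to 0.025. The ratios of Ikzf2 ranged over 1.56 to 3.46 in WT and 2.15 to 3.795 in KO, and those of Kcnq1ot1 over 1.86 to 4.38 and 2.36 to 4.12. The alternatives at 3000 UMIs or more and without partners from clusters led by haemoglobin or granule genes were chosen after seeing the data. At resolution 1, the cluster richest in members was 96.7% members in WT and 95.7% in KO.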
